A study of Mus musculus with 4 samples.

Results

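The genes described here are matrix metalloproteinases, their tissue inhibitors (TIMPs) and the plasminogen activator *Plau*, measured by RNA sequencing in peritoneal macrophages of mice with or without a myeloid deletion of the DNA methyltransferase gene *Dnmt1*. The set holds 10 of the 13834 genes in the table. It was chosen by name, as matrix proteases, inhibitors and activators that bear on plaque stability, with earlier results of these data known. These included the counts of *Timp1*, which were high in 1 Dnmt1 KO sample and on which that gene was selected. The 6 metalloproteinases are *Mmp8*, *Mmp9*, *Mmp12*, *Mmp13*, *Mmp14* and *Mmp19*, and the 3 inhibitors are *Timp1*, *Timp2* and *Timp3*. All 10 were in the table and all 10 passed the filter on low counts.

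The study asked how loss of *Dnmt1* changes gene expression in macrophages, with 2 Dnmt1 fl/fl and 2 Dnmt1 KO samples. Dnmt1 fl/fl mice carry floxed alleles without Cre, and the genotype label of these samples reads wt. Dnmt1 KO mice carry the same floxed alleles with Cre driven by the LysM promoter, which acts in myeloid cells generally. *Dnmt1* is thus deleted in neutrophils and monocytes as well as in macrophages, but not in other cells of a lavage. Mice of 10 weeks received thioglycolate broth into the peritoneum 3 days before lavage, and cells were collected by centrifugation with no sort described. The methods also describe a culture step, and whether RNA was taken before or after it is not given in the sources used here. Total counts were 20228071 and 24198943 in the Dnmt1 fl/fl samples and 21767795 and 22611219 in the Dnmt1 KO samples. At this depth 3 counts correspond to 0.124 to 0.148 CPM (counts scaled to a common library total) before TMM scaling between libraries. This limit covers counting error only, and the CPM values given below include the TMM scaling. Whether the samples came from separate animals is not stated, so p-values measure only the spread between these samples, which may be technical.

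Matrix metalloproteinases are zinc enzymes made as inactive precursors, and together they cleave collagens, elastin, fibronectin and many cell surface proteins. TIMPs bind the active site of the mature enzymes and block it, while urokinase, the product of *Plau*, turns plasminogen into plasmin, which degrades fibrin and activates several metalloproteinase precursors. Macrophages recruited to inflamed tissue are a major source of these enzymes, and neutrophils carry others ready-made in granules.

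The deleted gene was examined first. *Dnmt1* (chr9:20907209-20959888, minus strand, in the GENCODE annotation of GRCm38 used for all gene positions) was at 86.6 and 67.0 CPM in the Dnmt1 fl/fl samples and at 37.0 and 42.7 CPM in the Dnmt1 KO samples. Both Dnmt1 KO values lay below both Dnmt1 fl/fl values, with a log2 fold change of -0.95 (SE 0.24) and an adjusted p of 1.00 by edgeR. Without Dnmt1 KO sample 2 the adjusted p was 0.0200 (log2 fold change -1.05), and over all fits it ran from 0.0200 to 1.00.

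Macrophage identity was checked on 9 marker genes, all of which were in the table. The F4/80 gene *Adgre1* was at 942.3, 774.2, 700.4 and 986.2 CPM in Dnmt1 fl/fl samples 1 and 2 and Dnmt1 KO samples 1 and 2, the order used for every set of 4 values from here on, and the growth factor receptor gene *Csf1r* was at 1126.0, 1052.8, 1011.1 and 1075.0 CPM. *Lyz2*, the lysozyme gene into which this Cre is inserted, was the most abundant marker at 29530.7, 28587.5, 11351.4 and 15744.5 CPM. The 9 markers summed to 35925.0, 34911.6, 18152.5 and 22051.3 CPM, and the 8 other than *Lyz2*, which was set aside after its values were seen, to 6394.2, 6324.1, 6801.1 and 6306.8 CPM. Single markers varied in both directions: *Cd14* was at 239.7, 472.3, 459.0 and 196.6 CPM and *Mrc1* at 413.9, 322.3, 246.3 and 566.0 CPM, both picked after their values were seen. All 4 samples carried macrophage transcripts, and *Lyz2* was lower in both Dnmt1 KO samples (log2 fold change -1.10, SE 0.32, edgeR adjusted p 1.00; 0.0193 without Dnmt1 KO sample 2, the lowest over all fits, which reached up to 1.00).

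Across the whole table, edgeR called 0 of 12542 genes at an adjusted p under 0.05 (0%). At an unadjusted p under 0.05 it called 35, 14 with the higher mean in Dnmt1 KO (0.112%) and 21 with the lower (0.167%). DESeq2 called 1 gene after adjustment and 39 before, and limma-voom 0 and 40. The single DESeq2 gene, named after its values were seen, was *Pagr1a*, at 0.165, 0.673, 6.81 and 10.2 CPM. Leaving out Dnmt1 fl/fl sample 1, Dnmt1 fl/fl sample 2 or Dnmt1 KO sample 2 raised the adjusted count to 2, 10 and 1061 genes, the last being 8.32% of 12754 genes tested with the lone Dnmt1 KO sample assumed to vary like the others. The 2 genes called without Dnmt1 fl/fl sample 1, also named after their values were seen, were *Chil1* and *Slfn4*.

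In the fit of all 4 samples, edgeR, DESeq2 and limma-voom each called 0 of the 9 genes for which a p is given, and 0 of these had an unadjusted p under 0.05 by any of the 3 tools. The genotypes separated for 0 of the 10 genes, *Timp1* included. Among all genes tested both Dnmt1 KO values lay above both Dnmt1 fl/fl values in 1024 (8.16%) and below them in 1072 (8.55%), so a count of 0 in so small a set is no result about these genes. The count was also 0 with library totals in place of TMM scaling and after correction for transcript length. Values varied within both genotypes, and more widely between the Dnmt1 KO samples. The Dnmt1 KO samples differed by a log2 ratio of at least 1 for 7 of the 9 genes other than *Timp1*, against 18.8% of all genes tested. The median size of the ratio was 1.51 against 0.48. *Timp1* was left out of these tallies because it was selected on this difference. The other 9 genes were also chosen with earlier results of these data known, so the tallies are a description only. Between the Dnmt1 fl/fl samples the ratio reached 1 for 0 of the 9 genes against 5.52% of all, with medians of 0.57 and 0.21. Dnmt1 KO sample 1 held the highest value of 5 of the 9 genes (38.8% of all genes tested) and Dnmt1 KO sample 2 the lowest of 7 (25.8%).

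**Figure D1:**
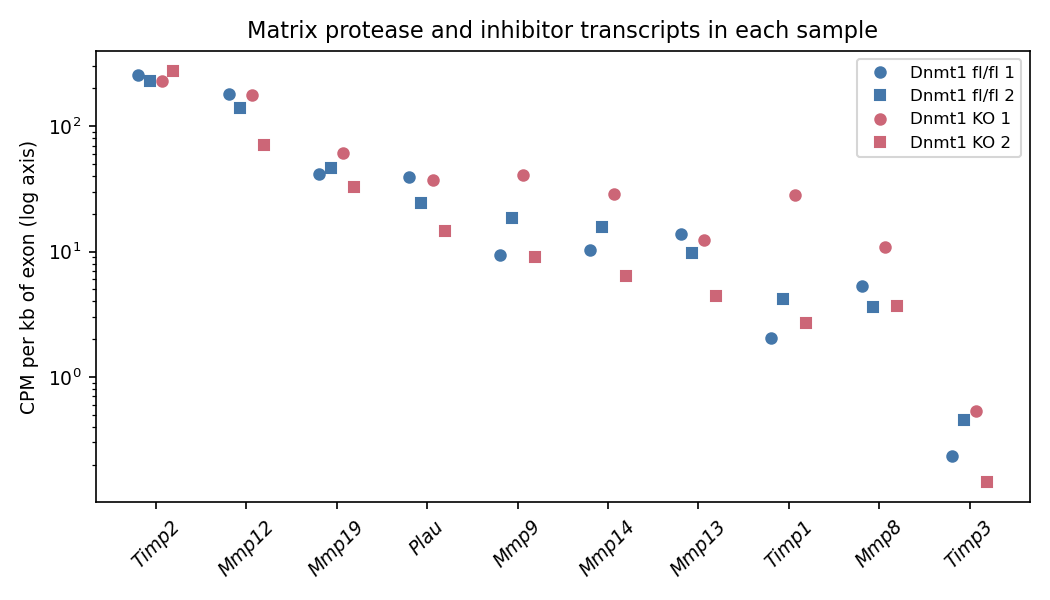
Level of each of the 10 genes in each sample, in CPM per kb of exon on a log axis; blue marks Dnmt1 fl/fl and red Dnmt1 KO, circles sample 1 and squares sample 2, with no averaging. For *Timp1*, Dnmt1 KO sample 1 sits at 28.4 and the other samples between 2.03 and 4.22, whereas the *Timp2* points lie between 227.0 and 273.9.

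*Mmp12* (chr9:7344381-7369499) encodes macrophage elastase and was the most abundant of the 6 metalloproteinases. It was at 1299.5, 1012.6, 1285.6 and 508.3 CPM. Dnmt1 KO sample 2 was low, and Dnmt1 KO sample 1 lay between the Dnmt1 fl/fl samples, so the genotypes overlapped. After correction for transcript length the values were 1215.7, 1007.8, 1481.5 and 473.7 CPM, with Dnmt1 KO sample 1 highest. Means were 1156.1 ± 202.9 CPM in Dnmt1 fl/fl and 897.0 ± 549.7 CPM in Dnmt1 KO (SD, n = 2 each), a log2 fold change of -0.37 (SE 0.47, edgeR adjusted p 1.00). The sign rested on Dnmt1 KO sample 2: without it the log2 fold change was 0.15, and without Dnmt1 KO sample 1 it was -1.19.

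*Mmp13* (chr9:7272514-7283331), a collagenase gene, stood at 36.5, 26.2, 33.2 and 11.7 CPM. Dnmt1 fl/fl sample 1 was highest and Dnmt1 KO sample 2 lowest, also after length correction (38.1, 25.5, 31.3 and 12.2 CPM). The log2 fold change of -0.48 (SE 0.50, edgeR adjusted p 1.00) became 0.09 without Dnmt1 KO sample 2 and -1.42 without Dnmt1 KO sample 1.

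*Mmp9* (chr2:164940780-164955850) encodes gelatinase B, which cleaves denatured collagen and basement membrane collagen and is made by both macrophages and neutrophils. Its values were 33.4, 66.0, 144.8 and 31.9 CPM. Dnmt1 KO sample 1 was highest and Dnmt1 KO sample 2 lowest, with both Dnmt1 fl/fl samples between them. Within Dnmt1 KO the values differed 4.54-fold. The log2 fold change was 0.83 (SE 0.72, edgeR adjusted p 1.00). Without Dnmt1 KO sample 2 it was 1.54, with an adjusted p of 0.0154 against 1.00 in every other fit, and without Dnmt1 KO sample 1 it was -0.64.

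*Mmp14* (chr14:54431612-54445364), the gene of a membrane-anchored metalloproteinase that cleaves pericellular collagen and activates the precursor of another gelatinase, was at 61.2, 94.0, 170.7 and 37.8 CPM. The 4 samples stood in the order seen for *Mmp9*, again with the Dnmt1 KO samples at both ends. Its log2 fold change of 0.43 (SE 0.68, edgeR adjusted p 1.00) was 1.14 without Dnmt1 KO sample 2 (adjusted p 0.0219, against 1.00 in every other fit) and -1.04 without Dnmt1 KO sample 1.

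*Mmp8* (chr9:7558456-7568485) encodes the collagenase stored in neutrophil granules. It was at 12.9, 8.69, 26.3 and 8.90 CPM. Dnmt1 KO sample 1 was high, while Dnmt1 KO sample 2 lay between the Dnmt1 fl/fl samples. The log2 fold change of 0.70 (SE 0.54, edgeR adjusted p 1.00) was 1.29 without Dnmt1 KO sample 2 (adjusted p 0.0193, against 1.00 in every other fit) and -0.28 without Dnmt1 KO sample 1.

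*Mmp19* (chr10:128790910-128800824), a metalloproteinase gene with a broad range of basement membrane substrates, was at 146.7, 164.6, 217.0 and 115.9 CPM. Here too the Dnmt1 KO samples held both ends. The log2 fold change was 0.10 (SE 0.34, edgeR adjusted p 1.00), and it was 0.48 and -0.43 without Dnmt1 KO samples 2 and 1 and -0.005 with TMM scaling left out.

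*Timp1* (chrX:20870166-20874735) encodes a secreted inhibitor that is induced in many inflamed tissues. Its counts were 37, 94, 499 and 56, or 1.80, 3.75, 25.2 and 2.37 CPM. Dnmt1 KO sample 1 stood far above the other 3 samples, and Dnmt1 KO sample 2 lay between the Dnmt1 fl/fl samples. These are the values on which the gene was singled out, so they are given as a description with no p. The fitted log2 fold change was 2.30 (SE 1.06), 3.17 without Dnmt1 KO sample 2 and -0.24 without Dnmt1 KO sample 1, so its sign rested on 1 library. The Dnmt1 KO samples differed 10.6-fold.

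*Timp2* (chr11:118301069-118355740), whose product both inhibits metalloproteinases and joins the membrane-anchored enzyme in activating a gelatinase precursor, behaved differently. It was at 990.2, 899.6, 884.4 and 1066.9 CPM. The highest value was only 1.21 times the lowest, the narrowest range of the 10 genes, and the Dnmt1 KO samples again lay at both ends. Means were 944.9 ± 64.1 CPM in Dnmt1 fl/fl and 975.7 ± 129.0 CPM in Dnmt1 KO (SD, n = 2 each), a log2 fold change of 0.05 (SE 0.25, edgeR adjusted p 1.00) whose sign turned with TMM scaling left out (-0.014) and without Dnmt1 fl/fl sample 2 (-0.017) or Dnmt1 KO sample 2 (-0.095).

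*Timp3* (chr10:86300372-86349506), the gene of an inhibitor that stays bound to the matrix, was scarce at 1.90, 3.71, 4.39 and 1.19 CPM, from counts of 39, 93, 87 and 28. Dnmt1 fl/fl sample 2 and Dnmt1 KO sample 1 were the higher pair. The log2 fold change was -0.02 (SE 0.71, edgeR adjusted p 1.00), with a sign that turned after length correction (0.17), without Dnmt1 fl/fl sample 2 (0.56) and without Dnmt1 KO sample 2 (0.64). Without Dnmt1 KO sample 1 it was -1.25.

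*Plau* (chr14:20836660-20843385) was at 93.5, 57.5, 88.2 and 34.6 CPM. Dnmt1 fl/fl sample 1 was highest and Dnmt1 KO sample 2 lowest, as for *Mmp13*. Its log2 fold change of -0.30 (SE 0.49, edgeR adjusted p 1.00) turned to 0.22 without Dnmt1 KO sample 2 and to 0.09 without Dnmt1 fl/fl sample 1, and was -1.13 without Dnmt1 KO sample 1.

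Levels of different genes were compared in CPM per kb of exon, as means of the 4 samples. *Timp2* led at 246.5 ± 21.8, followed by *Mmp12* at 141.8 ± 51.1 and *Mmp19* at 45.6 ± 12.0 (SD, n = 4). Next came *Plau* at 28.9, *Mmp9* at 19.5, *Mmp14* at 15.3, *Mmp13* at 10.1, *Timp1* at 9.32, *Mmp8* at 5.86 and *Timp3* at 0.343. The lowest sample of a gene lay above the highest sample of the next in this order only for *Timp2* over *Mmp12*, *Mmp12* over *Mmp19* and *Mmp8* over *Timp3*, and the place of *Timp1* came from Dnmt1 KO sample 1. The order depended on the length used. Per kb of the longest transcript, *Mmp12* was at 290.5, 226.3, 287.4 and 113.6 and *Timp2* at 267.0, 242.6, 238.5 and 287.7, so these 2 overlapped, and *Mmp14* (mean 28.1) lay above *Mmp9* (21.7). Per kb of all exons the 6 metalloproteinases summed to 259.8, 234.3, 331.9 and 126.4, with *Mmp12* making up 53.5 to 69.1% of the sum. The 3 inhibitors summed to 256.4, 235.6, 255.9 and 276.7, of which *Timp2* was 88.7% in Dnmt1 KO sample 1 and at least 98.0% elsewhere. The ratio of these transcript sums was 1.01 and 0.995 in the Dnmt1 fl/fl samples and 1.30 and 0.457 in the Dnmt1 KO samples, so the latter lay on either side of the former. It was 1.42, 1.36, 1.76 and 0.611 with the longest transcript.

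Markers of other cells differed between the samples along with several of these genes. Of 11 neutrophil markers, 7 were in the table and *Ngp*, *Camp*, *Elane* and *Mpo* were not. The 7 summed to 181.9, 253.2, 736.8 and 185.1 CPM, with *Csf3r* the most abundant in the mean over samples, the measure by which each marker list is led, at 158.3, 137.4, 168.8 and 158.5 CPM; in Dnmt1 KO sample 1 *S100a9* exceeded it at 320.1 CPM. The 6 markers other than *Csf3r*, set aside after its values were seen, summed to 23.5, 115.8, 568.0 and 26.6 CPM. Each of the 7 was highest in Dnmt1 KO sample 1, as were 38.8% of all genes tested. That sample also held the most *Timp1*, *Mmp8* and *Mmp9*, and likewise the most *Mmp14*, *Mmp19* and *Timp3*. The second place of Dnmt1 fl/fl sample 2 in the sums came from *S100a8*, *S100a9* and *Cxcr2* and was not shared by all: *Retnlg* (7.89 against 6.22 CPM) and *Ltf* (0.487 against 0.478 CPM) were higher in Dnmt1 fl/fl sample 1, and *Csf3r*, like *Mmp8*, was lowest in Dnmt1 fl/fl sample 2. *S100a9* and *Ltf* were named after their values were seen. *Ly6g*, chosen after its values were seen, had 1, 8, 79 and 1 counts, so 2 samples lay under the 3-count limit. The part of neutrophils in the values of *Timp1*, *Mmp8* and *Mmp9* was not tested. In bulk RNA, fewer cells of a type and less RNA per cell cannot be told apart.

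**Figure D2:**
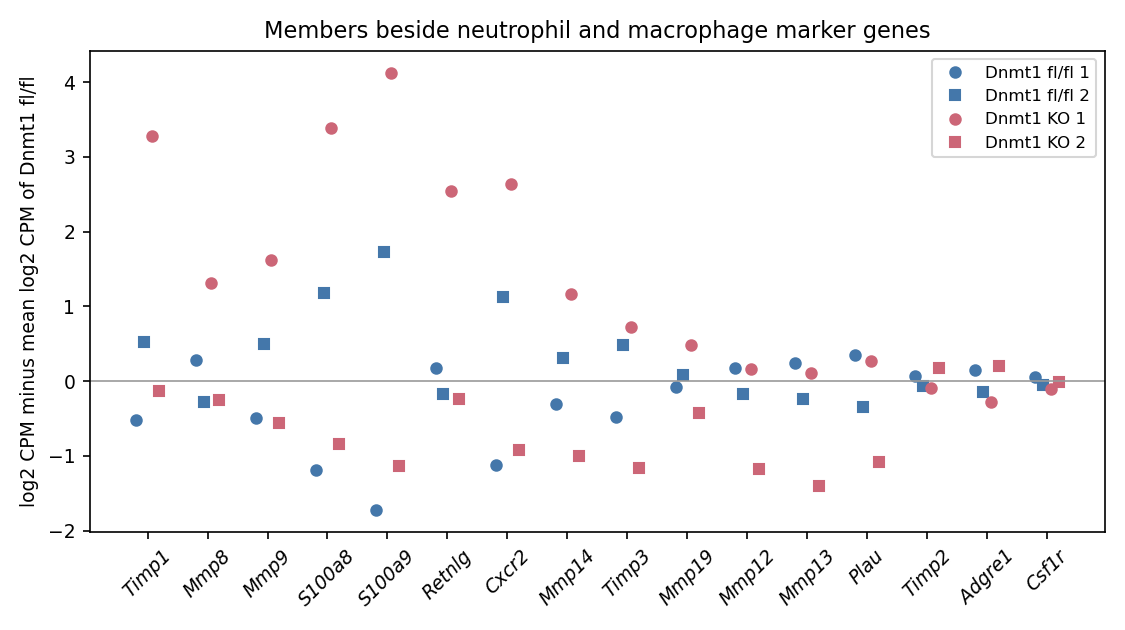
The 10 genes beside neutrophil markers (*S100a8*, *S100a9*, *Retnlg*, *Cxcr2*) and macrophage markers (*Adgre1*, *Csf1r*), as log2 CPM minus the mean log2 CPM of the Dnmt1 fl/fl samples; each point is 1 sample, blue Dnmt1 fl/fl and red Dnmt1 KO, circles sample 1 and squares sample 2. The marker genes drawn were chosen after their values were seen. Among those not drawn, the macrophage markers *Lyz2*, *Cd14* and *Mrc1* varied between samples and the neutrophil marker *Csf3r* varied little. *Timp1* and the neutrophil markers drawn are highest in Dnmt1 KO sample 1, where *S100a9* reached 320.1 CPM against 8.35 CPM in Dnmt1 KO sample 2.

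The 7 fibroblast markers, led by *Col3a1*, summed to 47.0, 68.2, 134.4 and 31.1 CPM, and the 7 mesothelial markers, led by *Krt19*, to 6.53, 7.93, 11.5 and 4.66 CPM. Both had the sample order of *Mmp9* and *Mmp14*. That order is not particular to these genes. Dnmt1 fl/fl sample 2 and Dnmt1 KO sample 1 lay above Dnmt1 fl/fl sample 1 and Dnmt1 KO sample 2 in 28.7% of all genes tested. Fibroblasts express *Mmp14* and *Timp3*. The 6 B cell markers, led by *Ighm*, summed to 318.3, 483.1, 129.6 and 525.2 CPM, and the 8 markers of resident peritoneal macrophages, led by *Prg4*, to 485.3, 391.8, 157.1 and 449.8 CPM. Both were lowest in Dnmt1 KO sample 1. *Col3a1*, *Ighm* and *Prg4* had log2 fold changes of 0.48, -0.28 and -0.44 with all 4 samples (edgeR adjusted p 1.00 for each), 1.16, -1.43 and -2.33 without Dnmt1 KO sample 2 (adjusted p 0.0127, 0.0129 and 0.0129, each up to 1.00 in other fits), and -0.86, 0.35 and 0.35 without Dnmt1 KO sample 1. Their part in the results was not tested.

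The remaining marker lists varied less or were scarce. The 5 monocyte markers, led by *Ccr2*, summed to 843.5, 1312.2, 1006.9 and 964.4 CPM. The 6 dendritic cell markers, led by *Cd209a*, summed to 42.3, 40.8, 23.6 and 53.1 CPM, and the 7 T and NK cell markers, led by *Nkg7*, to 16.8, 27.1, 23.4 and 22.5 CPM. Of 6 eosinophil markers 3 were in the table (*Epx*, *Prg2* and *Ear6* were not), led by *Ccr3* and summing to between 7.67 CPM in Dnmt1 KO sample 1 and 14.1 CPM in Dnmt1 fl/fl sample 1. *Cd209a* and *Ccr3* had log2 fold changes of -0.30 and -0.73 in the fit of all 4 samples (edgeR adjusted p 1.00 for both), -1.05 and -1.67 without Dnmt1 KO sample 2 (adjusted p 0.0367 and 0.0452, each up to 1.00 in other fits), and 0.18 and -0.17 without Dnmt1 KO sample 1. The 6 mast cell markers, led by *Cma1*, summed to 12.7, 10.8, 10.3 and 8.94 CPM.

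Transcript length also moved with the samples. Across 12351 genes, the deviation of a sample from the gene mean correlated with exon length at a Spearman rho of 0.407, -0.078, -0.401 and 0.341, so Dnmt1 KO sample 1 had relatively more RNA from short genes; genes are not independent replicates. At the length of *Timp1* (888 bases of exon) the trend was -0.21, 0.09, 0.29 and -0.17 on the log2 scale. With it removed *Timp1* was at 2.08, 3.53, 20.6 and 2.67 CPM, and the Dnmt1 KO samples differed 7.73-fold.

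Genes whose pattern over the 4 samples lay near that of *Timp1*, by Euclidean distance of centred log2 CPM among 8457 genes with a mean of at least 10 CPM, were *Cxcr2* (1.11), *S100a8* (1.13), *Retnlg* (1.17) and *Hp* (1.32). *Cxcr2*, a chemokine receptor gene of neutrophils, was at 2.63, 12.6, 35.8 and 3.03 CPM. *S100a8* was at 6.92, 35.7, 164.4 and 8.77 CPM. *Retnlg* was at 7.89, 6.22, 40.6 and 5.93 CPM. *Hp*, the haptoglobin gene, was at 30.5, 140.7, 275.5 and 34.4 CPM. Being picked by likeness to a pattern on which *Timp1* was itself singled out, these genes show nothing about where its RNA came from.

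Among the 6 metalloproteinases and *Plau*, *Mmp9* had the widest range over samples (4.54-fold, against 4.51-fold for *Mmp14*), and genes near it in pattern lay much closer, at distances of 0.18 for *Pdpn*, 0.21 for *Slc2a3*, 0.26 for *Sparc* and 0.28 for *Ccl24*. *Pdpn*, the podoplanin gene, was at 22.2, 38.5, 85.4 and 17.9 CPM. *Ccl24*, a chemokine gene of alternatively activated macrophages, was at 16.7, 34.1, 73.3 and 13.0 CPM, and the glucose transporter gene *Slc2a3* at 5.86, 12.1, 25.7 and 6.74 CPM. With 4 samples such likeness is a description only.

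Other genes of the same pathways were taken from 7 lists with 99 genes, of which 80 were in the table and 69 were tested. edgeR called 0 of the 69 in either direction, DESeq2 and limma-voom none, and 1 had an unadjusted p under 0.05. The genotypes did not overlap for 5 higher (7.25%, against 8.16% of all genes tested) and 8 lower genes (11.6%, against 8.55%), shares near the background. The 5 higher, named after their values were seen, were *Pcolce*, *Furin*, *Plat*, *Tgfbi* and *Stat3*, and the 8 lower, named likewise, were *Spock2*, *Serpinb2*, *Adam9*, *Adam17*, *Thbs1*, *Il1a*, *Ets2* and *Fosl2*. The gene with the unadjusted p was *Fosl2*, which encodes a subunit of the AP-1 transcription factor, at 94.8, 104.7, 72.3 and 64.4 CPM (log2 fold change -0.54, SE 0.22, edgeR p 0.0484, adjusted p 1.00). Both Dnmt1 KO values were below both Dnmt1 fl/fl values.

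Among the 17 other metalloproteinase genes 9 were in the table and 4 were tested, with a median log2 fold change of 0.18. *Mmp27*, which lies next to *Mmp8* on chromosome 9, was the most abundant per kb at 40.0, 26.0, 14.2 and 41.8 CPM, and *Mmp28* followed at 3.59, 3.22, 1.24 and 3.73 CPM. Both were lowest in Dnmt1 KO sample 1, opposite to *Mmp8*. Without Dnmt1 KO sample 2 the log2 fold change of *Mmp27* went from -0.23 to -1.21 (edgeR adjusted p 0.0246, and up to 1.00 in other fits), and without Dnmt1 KO sample 1 it was 0.34. The cluster that holds these genes, chr9:7272514-7699585, spans 427.1 kb with 10 metalloproteinase genes, 6 of them in the table; *Mmp13* and *Mmp12* lie at its start.

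The inhibitor and clearance list (6 tested, median log2 fold change -0.09) was led per kb by *Lrp1*, a receptor that takes up protease complexes, at 1846.8, 919.8, 954.2 and 1809.5 CPM, followed by *Spint2* at 2.19 ± 0.279 CPM in Dnmt1 fl/fl and 2.36 ± 0.262 CPM in Dnmt1 KO (SD, n = 2 each). *Lrp1* was high in Dnmt1 fl/fl sample 1 and Dnmt1 KO sample 2, and its genotype means were 1383.3 and 1381.8 CPM. The activator and partner list (8 tested, median 0.26) was led by the tetraspanin gene *Cd9* at 495.1, 485.1, 856.4 and 340.5 CPM and by *Bsg*, an inducer of metalloproteinases, at 264.5, 343.4, 546.5 and 283.1 CPM. The log2 fold changes of *Cd9* and *Bsg* were 0.29 and 0.45 with all 4 samples and 0.81 and 0.85 without Dnmt1 KO sample 2. Their signs turned without Dnmt1 KO sample 1 (-0.53 and -0.10).

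In the plasminogen list (8 tested, median log2 fold change 0.36), *Anxa2*, which gives a surface for plasmin formation, was at 1143.2, 1652.5, 2662.0 and 1069.0 CPM, and *Eno1*, a plasminogen-binding glycolytic enzyme gene, at 959.6, 1496.8, 2418.8 and 874.5 CPM. Both peaked in Dnmt1 KO sample 1, unlike *Plau*. In the ADAM and ADAMTS list (11 tested, median -0.01), *Adam8* was at 483.1, 376.4, 681.0 and 377.3 CPM and the sheddase gene *Adam10* at 270.5, 302.1, 283.8 and 272.9 CPM. *Adam10*, like *Timp2*, was even across samples.

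Among the matrix substrates (13 tested, median log2 fold change 0.24), *Spp1*, the osteopontin gene, was the most abundant per kb at 2740.5, 3769.6, 10349.0 and 2127.3 CPM, and *Fn1* was at 6410.7, 5933.4, 6122.9 and 5917.1 CPM. *Spp1* had the sample order of *Mmp9*, while *Fn1* was even. The log2 fold change of *Spp1* was 0.94 (SE 0.72, edgeR adjusted p 1.00), 1.67 without Dnmt1 KO sample 2 (adjusted p 0.00641, and up to 1.00 in other fits) and -0.62 without Dnmt1 KO sample 1. In the list of inducers and AP-1 and ETS factors (19 tested, median -0.07), *Cebpb* was at 273.8, 472.8, 620.9 and 261.3 CPM and *Jund* at 153.6, 194.8, 344.4 and 143.7 CPM. *Jund* had a log2 fold change of 0.49 with all 4 samples, 0.98 without Dnmt1 KO sample 2 and -0.28 without Dnmt1 KO sample 1. The median over all genes tested was 0.00457.

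Promoter sequences were taken from RefSeq on GRCm38.p6, as 250 bases before and 50 after each start. Of the 10 genes 7 matched; *Mmp9*, *Mmp19* and *Plau* did not. The AP-1 motif TGAGTCA, whose reverse complement is TGACTCA, was searched on both strands, since metalloproteinase promoters are known targets of AP-1. It was present in 5.20% of all 32851 promoters and in 4.0% of the 13665 promoters of genes in the table. Among the 7 genes it was present in *Mmp13* and in *Mmp12*, which lie in the same cluster. The *Mmp13* window, chr9:7272264-7272563 on the plus strand, has the motif 35 bases before the start. The *Mmp12* window shown, chr9:7347124-7347423 on the plus strand, belongs to an annotated start 2977 bases downstream of the first and has it 44 bases before that start; the window of the first start has none. Capitals mark the motif.
Mmp13: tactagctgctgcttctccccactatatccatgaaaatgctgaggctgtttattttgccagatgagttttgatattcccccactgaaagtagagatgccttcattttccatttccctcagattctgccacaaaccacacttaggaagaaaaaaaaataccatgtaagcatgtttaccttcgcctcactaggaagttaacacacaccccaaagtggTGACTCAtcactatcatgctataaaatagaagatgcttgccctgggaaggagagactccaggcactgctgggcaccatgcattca
Mmp12: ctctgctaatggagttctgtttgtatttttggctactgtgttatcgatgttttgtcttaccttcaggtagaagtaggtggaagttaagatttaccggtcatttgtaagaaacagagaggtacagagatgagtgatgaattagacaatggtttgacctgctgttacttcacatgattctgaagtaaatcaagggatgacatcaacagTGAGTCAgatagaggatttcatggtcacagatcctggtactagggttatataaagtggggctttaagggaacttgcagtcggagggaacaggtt

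CpG dinucleotides, the sites that DNMT1 methylates after replication, numbered 4 in the *Mmp8* window, 0 and 3 at the 2 starts of *Mmp12*, 1 in *Mmp13*, 10 in *Mmp14*, 8 in *Timp1*, 25 in *Timp2* and 24 in *Timp3*. The median was 7 over all promoters and 19 over promoters of genes in the table. The windows of *Timp1* and *Timp2*, of the 3 inhibitors those with the widest and the narrowest range over samples, are printed with each CpG in capitals. They lie at chrX:20869916-20870215 on the plus strand and chr11:118355362-118355661 on the minus strand. DNA methylation was not analysed here.
Timp1: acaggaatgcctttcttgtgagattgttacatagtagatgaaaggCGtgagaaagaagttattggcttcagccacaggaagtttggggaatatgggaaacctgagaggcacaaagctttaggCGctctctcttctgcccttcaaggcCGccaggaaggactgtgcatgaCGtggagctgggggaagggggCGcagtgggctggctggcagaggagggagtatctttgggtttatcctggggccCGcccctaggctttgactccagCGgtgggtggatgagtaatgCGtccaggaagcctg
Timp2: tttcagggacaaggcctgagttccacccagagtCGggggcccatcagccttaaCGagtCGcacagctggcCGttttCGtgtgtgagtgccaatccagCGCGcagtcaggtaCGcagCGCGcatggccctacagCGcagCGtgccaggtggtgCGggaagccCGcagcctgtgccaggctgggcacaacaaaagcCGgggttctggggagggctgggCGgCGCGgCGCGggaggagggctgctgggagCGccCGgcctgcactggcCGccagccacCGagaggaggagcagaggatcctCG

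Shared exons limit 3 of the values. The exons of *Timp3* share 1733 bases with *Syn3* on the opposite strand, those of *Mmp19* share 789 bases with *Tmem198b* and 212 with *Gm47093*, and those of *Mmp12* share 157 bases with *Mmp1b*. The strand setting of the counting is not given in the sources used here, so reads of such partners cannot be told apart from their own. *Timp1* lies within the span of *Syn1* and shares 0 exon bases with it.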

How the data were processed

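RNA of 2 Dnmt1 fl/fl and 2 Dnmt1 KO samples was sequenced as 150 bp paired-end reads. The deposited values are estimated counts per gene, which the authors made with HISAT2 2.0.5 on mm10 and featureCounts 1.5.0-p3; the annotation is not given in the sources used here. Of the values, 72.6 to 76.4% per sample were whole (a remainder of exactly 0), and the table holds only genes above 0 in all 4 samples. Counts were rounded, filtered with filterByExpr (12542 of 13834 genes kept), scaled by TMM (factors 1.015, 1.037, 0.910 and 1.044) and tested two-sided between genotypes with the quasi-likelihood F-test of edgeR 4.0.16 in R 4.3.3, with Benjamini-Hochberg adjustment over all genes tested. The common dispersion of 0.0837 corresponds to a coefficient of variation of 28.9% between replicates. The fit was tested on simulated data. DESeq2 1.42.0, limma 3.58.1, other filters and scaling, a replicate block, a length correction (loess, span 0.5) and leaving out each sample were the alternatives. CPM per kb used the union of GENCODE exons. The smallest p that an exact permutation of 2 against 2 samples allows is 0.333, so none was used. A second deposited table, with rows repeated from the first for genes picked by fold change, was not used. The genes and lists were chosen with earlier results of these data known. Named were the 10 genes, *Dnmt1*, in each of 7 pathway lists the 2 most abundant per kb and any gene with an unadjusted p under 0.05 or, with genotypes not overlapping, a log2 fold change of 1 or more either way, the most abundant gene of each of 11 marker lists with the markers not in the table, and the 5 genes nearest in pattern to *Timp1* and to the protease gene of the 10 with the widest range, of which 1 is not reported here.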

Additional observations from a re-analysis of the deposited data

How the results depend on the processing

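The count of genes called by edgeR was 0 of 12542 and was also 0 with limma-voom, without TMM scaling, with either other filter, with length correction, and with the replicate number as a block; DESeq2 called 1, and leaving out 1 sample gave 0 to 1061. At an unadjusted p under 0.05 the count of 35 became 60 without a filter, 53 with the replicate block and length correction, 34 with the replicate block alone, and 43 to 3521 with 1 sample left out. Same-numbered samples deviated in opposite directions (correlation -0.344 across 12542 genes). With only 1 difference between samples in each genotype, this cannot tell whether the number pairs them. A crossed pairing, added after seeing the data, called 3 genes after adjustment and 297 before. Without TMM scaling the log2 fold changes of *Mmp19* and *Timp2* were -0.005 and -0.014, and with length correction that of *Timp3* was 0.17. *Lrp1*, at -0.00 in the fit as reported, was at 0.0019 with limma-voom, 0.0046 with DESeq2, 0.0027 with all genes kept, 0.012 with the replicate block and with the crossed one, 0.15 with length correction and 0.19 with both block and correction. With length correction *Adam10* was at 0.024 and *Fn1* at 0.14, and with the replicate block added at 0.023 and 0.11. With 1 sample left out the log2 fold change ran from -0.28 to 1.29 for *Mmp8*, -0.64 to 1.54 for *Mmp9*, -1.19 to 0.15 for *Mmp12*, -1.42 to 0.087 for *Mmp13*, -1.04 to 1.14 for *Mmp14*, -0.43 to 0.48 for *Mmp19*, -0.24 to 3.17 for *Timp1*, -0.095 to 0.17 for *Timp2*, -1.25 to 0.64 for *Timp3* and -1.13 to 0.22 for *Plau*. For the other genes it ran from -1.21 to 0.34 for *Mmp27*, -1.49 to 0.12 for *Mmp28*, -0.54 to 0.59 for *Lrp1*, -0.02 to 0.24 for *Spint2*, -0.53 to 0.81 for *Cd9*, -0.10 to 0.85 for *Bsg*, -0.39 to 0.93 for *Anxa2*, -0.49 to 0.98 for *Eno1*, -0.19 to 0.66 for *Adam8*, -0.12 to 0.046 for *Adam10*, -0.62 to 1.67 for *Spp1*, -0.086 to 0.022 for *Fn1*, -0.52 to 0.73 for *Cebpb*, -0.28 to 0.98 for *Jund*, -2.33 to 0.35 for *Prg4*, -0.65 to 0.0081 for *Ccr2*, -0.86 to 1.16 for *Col3a1*, -0.40 to 0.92 for *Krt19*, -1.43 to 0.35 for *Ighm*, -0.50 to 0.30 for *Nkg7*, -1.05 to 0.18 for *Cd209a*, -1.67 to -0.17 for *Ccr3* and -0.83 to -0.12 for *Cma1*. The lone sample of a genotype was then assumed to vary like the others. With the longest transcript as length, *Mmp12*, *Mmp14* and *Timp3* stood at 229.4, 28.1 and 0.592 CPM per kb. The causes of these shifts were not tested. *Timp1* and *Timp3* rest on under 100 counts in most samples.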
